A study of Orbicella faveolata with 56 samples.

Results

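The 150 genes described here are host transcripts of the Caribbean reef coral Orbicella faveolata that were scarce at 30 °C and higher at 32 °C in most coral fragments. They were chosen by measured values from the 87440 rows of the host table. A gene was taken if its mean level over the 28 libraries at 30 °C was at least 1 and under 20 counts per 1000000 host counts (CPM), and if its level was higher at 32 than at 30 °C in at least 21 of 27 pairs of fragments. A pair is the 30 and the 32 °C fragment of one coral at one transplant site. The change was measured on log2(CPM + 1), which understates the change of low genes, and the 150 genes with the largest mean change over the pairs were kept. The change with heat is therefore how the genes were selected. Every value of it given here is a description with no test.

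Reef-building corals are colonial animals that house photosynthetic dinoflagellates inside cells of their gut lining. When the water stays too warm the partnership can break down and the colony bleaches. In animals in general, heat raises transcripts for chaperones, which refold damaged proteins, and for the clearance of proteins and oxidants that damage cells. The deposited identifiers carry no gene names and no annotation was used, so none of the 150 genes can be assigned to these or other functions here. They are described by rank of mean change, and the first 2 also by identifier.

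The study asked how heat tolerance varies among corals moved between reefs of the Florida Keys. Fragments of 14 corals, 8 of inshore and 6 of offshore origin, were placed at a transplant site inshore and at another offshore, and then kept at 30 °C, the control, or brought over 7 days to 32 °C and held there for 6 days. The labels name no other treatment of any group. The 4 fragments of a coral are pieces of the same animal, A3, A5 and A6 of inshore origin are of one genotype, In1, and a single collection site gave all corals of offshore origin.

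The 55 libraries fall into 8 groups. Inshore-origin corals gave 8 libraries at each site and temperature. Offshore-origin corals gave 6 at each, less the heated inshore-site fragment of C3, which leaves 5. Host totals ran from 2850075 to 7239229 estimated counts with a median of 5021488. Libraries of coral A6 (inshore site, 30 °C), B3 and B4 (inshore site, 32 °C), B3, B6 and C3 (offshore site, 30 °C) and B1 (offshore site, 32 °C) stand apart from the others, because their mean correlation with the other libraries is low. In bulk tissue, fewer cells of a type and less RNA per cell cannot be told apart.

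At 30 °C the 150 genes had a median of their mean levels of 4.97 CPM, between 1.04 and 19.5 CPM. At 32 °C the median was 9.80 CPM, between 1.99 and 37.2 CPM. In estimated counts per library, the median gene went with a mean of 24.7 at 30 °C and 49.1 at 32 °C, so single libraries hold few counts of most of these genes. The ratio of the mean CPM at 32 to that at 30 °C had a median of 1.68 and ran from 1.28 to 6.32, with 37 genes over 2 and 14 over 3. At 32 °C, 34 of the genes had left the range that defined them and averaged above 20 CPM. In at least 1 library at 30 °C 29 genes had an estimated count of 0, against 10 genes at 32 °C.

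Together the genes took 0.106% ± 0.0147 of host counts in corals of inshore origin placed inshore at 30 °C and 0.216% ± 0.0836 at 32 °C (SD, n = 8 each). Over the 4 combinations of origin and site the mean share lay between 0.0970% and 0.107% at 30 °C and between 0.158% and 0.216% at 32 °C, so they remained a small part of the host counts after heating.

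Their average level, taken as the mean of log2(CPM + 1) over the 150 genes, separated nearly all heated libraries from the controls. The choice of the genes by their rise in these same libraries favours this. The average level was 2.49 ± 0.124 in the 28 libraries at 30 °C and ran from 2.19 to 2.72. At 32 °C it was 3.14 ± 0.315 in 27 libraries and ran from 2.46 to 3.83. Of the heated libraries, 25 lay above the highest control, which was coral A6 at the inshore site. The exceptions were B3 at the inshore site, at 2.46, and B1 at the offshore site, at 2.52, and both are among the libraries that stand apart. The SD at 32 °C was larger than at 30 °C in all 4 combinations of origin and site. In corals of offshore origin placed offshore the 2 were nearly equal, at 0.165 and 0.166. In corals of inshore origin placed inshore the level was 2.54 ± 0.128 at 30 °C and 3.27 ± 0.429 at 32 °C (SD, n = 8 each).

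**Figure D1:**
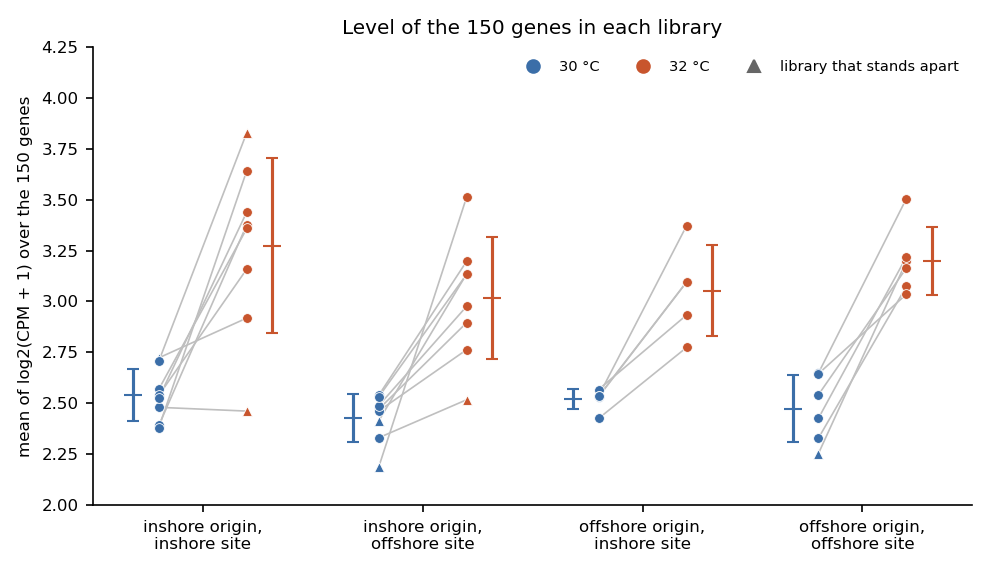
Mean of log2(CPM + 1) over the 150 genes in each of the 55 libraries, by origin, transplant site and temperature; each point is a library, bars give the mean and SD, and triangles mark libraries that stand apart. The controls sit between 2.19 and 2.72, and 25 of 27 heated libraries lie above all of them. The genes were chosen for their rise in these libraries.

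The libraries carry numbers in the labels, whose meaning is not given, and numbers 1 to 16 all belong to controls. The level of the 150 genes was 2.52 ± 0.109 in those 16 controls and 2.45 ± 0.138 in the other 12 (SD). Within the 8 corals that have controls of both kinds the difference was −0.06 ± 0.144 (SD), above 0 in 3 of 8, in the sense of higher minus lower numbers. The 2 controls of each of these corals stood at different transplant sites, so number and site cannot be told apart in this difference. In the 12 pairs whose 2 libraries are both numbered above 16 the median change of the 150 genes was 0.57, beside 0.56 over all pairs, and all 150 were above 0. The 20 pairs with no library that stands apart gave 0.58, again with all 150 genes above 0. All of these pairs also took part in the choice of the genes, which favours values above 0. The rule applied to the 12 pairs alone chose 82 of the 150 again.

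The size of the change differed among the 27 pairs. The mean change over the 150 genes was 0.65 ± 0.33 on the log2(CPM + 1) scale (SD over pairs), from −0.02 in coral B3 at the inshore site to 1.33 in coral B3 at the offshore site. These extremes come from the same animal, and each pair holds a library that stands apart. At the inshore site 88 of the 150 genes were higher at 32 °C in B3, and at its offshore site 144 were. Genes of the same control level differed between these pairs in the same sense: the 24397 host rows with 1 to under 20 CPM at 30 °C had a median change of −0.28 in the first and 0.15 in the second. Set against the mean change of those rows in the same pair, the 150 genes were higher in 27 of 27 pairs, by 0.26 to 1.26, which the choice of the genes favours.

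The pairs of the 4 combinations of origin and site overlapped. Inshore-origin corals changed by 0.73 ± 0.447 when placed inshore and by 0.59 ± 0.348 when placed offshore (SD, n = 8 each). Offshore-origin corals changed by 0.54 ± 0.197 at the inshore site (n = 5) and 0.73 ± 0.196 at the offshore site (n = 6). All 150 genes had a mean change above 0 in 3 of these combinations, and 143 did in corals of offshore origin placed inshore. Within genotype In1 the changes were 0.99 in A3, 0.79 in A5 and 0.20 in A6 inshore, and 0.43, 0.30 and 0.49 offshore. The lowest of these, A6 at the inshore site, again holds a library that stands apart, its control.

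**Figure D2:**
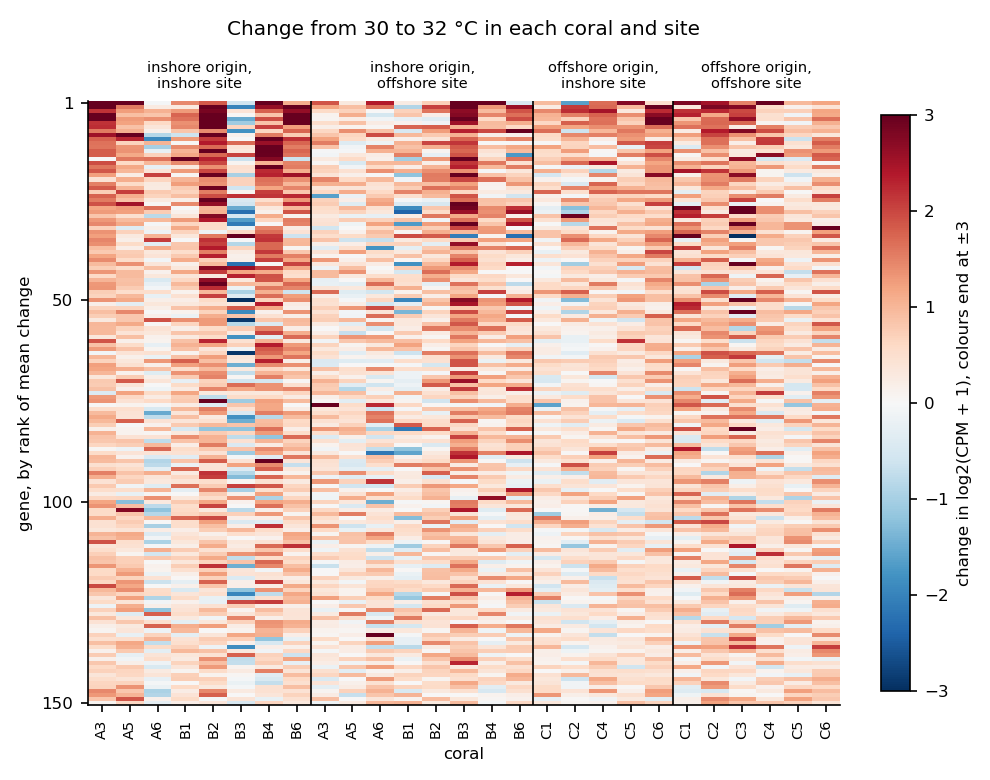
Change in log2(CPM + 1) from 30 to 32 °C of each of the 150 genes (rows, ordered by mean change) in each of the 27 pairs (columns, grouped by origin and site); red is higher and blue lower at 32 °C. Coral B3 at the inshore site shows the most blue, with 61 genes lower at 32 °C.

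Among themselves the genes differed more in evenness than in direction. The mean change over pairs had a median of 0.56 and ran from 0.43 to 1.78. The SD of a gene's change over the pairs had a median of 0.68 and exceeded the mean change in 101 of 150 genes. A typical member was thus higher in most pairs, as the rule required, by amounts that varied widely. In the other rows of the same control level the median SD was 0.53. The 150 genes were chosen by these same changes, which bears on this comparison. A gene's 3 largest rises made up a median of 36.4% of its summed rise, and over 50% in 15 genes.

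The 16 genes with a mean change over 1 were scarcer at 30 °C and had more of their rise in 3 pairs than the rest. Their mean levels at 30 °C had a median of 2.44 CPM, against 5.92 CPM in the other 134. Their ratio of mean CPM had a median of 3.54, and their 3 largest pairs held a median of 48.7% of the rise. In the other 134 genes these values were 1.65 and 35.3%. The split by mean change itself favours the larger ratio and bears on the share held by 3 pairs.

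The count of pairs with a higher level at 32 °C was 21 in 40 genes, 22 in 36, 23 in 31, 24 in 20, 25 in 12, 26 in 8 and 27 in 3. The genes higher in every pair hold ranks 3, 7 and 67. The gene of rank 3 ran from 1.54 to 20.8 CPM with a median of 6.42 at 30 °C, and from 8.03 to 53.6 CPM with a median of 20.6 at 32 °C. For rank 7 the levels were 4.05 to 16.2 CPM (median 9.17) at 30 °C and 10.9 to 64.2 CPM (median 18.8) at 32 °C. The gene of rank 67 had the smallest change of the 3, from a median of 9.12 CPM (4.81 to 15.3) to a median of 13.6 CPM (5.80 to 28.4), with a change of 0.58 ± 0.345 over the 27 pairs. In all 3 the levels at the 2 temperatures overlapped across corals although no pair went the other way.

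Near the limits of the rule the genes graded into their neighbours. Rank 150 had a mean change of 0.430849 and the next row in order 0.430498. A further 37 rows were higher in 20 pairs, 1 short of the limit, with a mean change above that of rank 150, the largest being 1.02. Rows that met the rest of the rule numbered 19 under 1 CPM, the nearest at 0.974 CPM, and 45 at 20 CPM or more, the nearest at 20.4 CPM. Of the rows in the level range 447 (1.83%) were higher in at least 21 pairs and 368 (1.51%) were lower in at least 21. Among the 9116 rows with 20 CPM or more the shares were 3.88% and 3.67%.

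The gene of rank 1, OFAVBQ_DN218234_c4_g1, was higher at 32 °C in 23 of 27 pairs, with a mean change of 1.78 ± 1.81 (SD over pairs). In corals of inshore origin placed inshore it lay between 0.293 and 17.7 CPM at 30 °C, with a median of 3.17, and between 1.86 and 98.3 CPM at 32 °C, with a median of 13.8. The same corals at the offshore site had 0 to 0.869 CPM at 30 °C, with a median of 0.423, and 0 to 69.0 CPM at 32 °C, with a median of 3.22. At both sites the temperatures overlapped, and at 30 °C the offshore-site libraries of inshore-origin corals were the lowest and most uniform group. They held only 0 to 4 estimated counts of the gene, so this evenness is that of values near 0.

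In offshore-origin corals the median of this gene was lower at the offshore site at 30 °C and higher there at 32 °C, and the sites overlapped at both temperatures. At the inshore site it had 0.740 to 11.2 CPM at 30 °C, with a median of 2.25, and 4.45, 0.192, 37.9, 68.3 and 1.45 CPM at 32 °C in C1, C2, C4, C5 and C6. The offshore-site levels were 0.251 to 34.9 CPM at 30 °C, with a median of 0.966, and 2.55 to 69.8 CPM at 32 °C, with a median of 31.6. Corals C4 and C5 were the highest heated libraries at the inshore site, while offshore the highest were C2, C4 and C5.

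The gene of rank 2, OFAVBQ_DN224748_c2_g1, was even at 30 °C and uneven at 32 °C. Over all controls it lay between 0.941 and 7.42 CPM with a median of 4.06, and over the heated libraries between 0.716 and 97.6 CPM with a median of 13.2. It was higher at 32 °C in 25 of 27 pairs, with a mean change of 1.56 ± 1.54 (SD). At the inshore site inshore-origin corals had a median of 4.02 CPM at 30 °C (0.941 to 5.74) and 16.1 CPM at 32 °C (0.716 to 97.6), and at the offshore site 2.72 CPM (1.02 to 4.89) and 9.85 CPM (0.952 to 95.3). Its heated libraries over 50 CPM were B2 and B6 at the inshore site, B3 at the offshore site and C6 at the inshore site, and the first gene was over 50 CPM in 1 of these 4, B3.

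Corals of offshore origin placed inshore had a median of 4.85 CPM of the rank 2 gene at 30 °C (3.56 to 7.42) and 5.66, 34.9, 18.99, 7.93 and 55.3 CPM at 32 °C in C1, C2, C4, C5 and C6. At the offshore site the median was 4.47 CPM (3.44 to 6.28) at 30 °C and 7.78 CPM (4.30 to 36.8) at 32 °C. All 6 offshore-site pairs were higher at 32 °C, from C5, which had 3.86 and 4.30 CPM, to C2, which had 4.36 and 36.8 CPM.

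**Figure D3:**
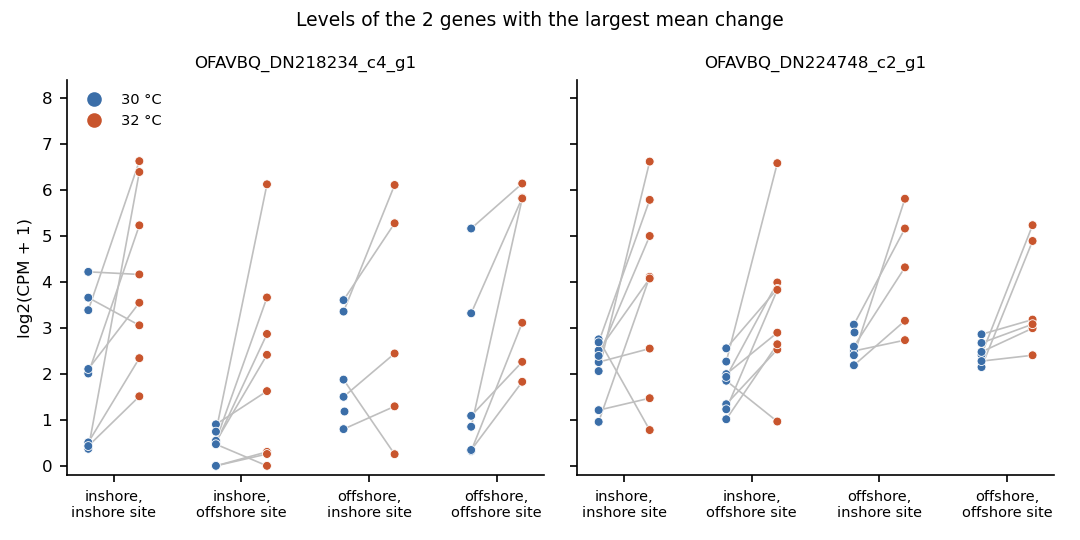
Levels, as log2(CPM + 1), of the 2 genes with the largest mean change in each library, by origin and transplant site; grey lines join the 30 and 32 °C fragments of a coral. The first gene is at 0 to 0.869 CPM in corals of inshore origin placed offshore at 30 °C, and the second is at 7.42 CPM or less in every control.

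The genes most like the first one were ranks 111, 54 and 10, with Pearson r of 0.58, 0.53 and 0.45 of log2 levels over the 55 libraries after removal of the group means. Libraries of a coral share their animal, so these are descriptions. Rank 10 reached the highest single level seen in these 4 genes, 501 CPM in a heated library, with a median of 11.3 CPM at 32 °C and 5.19 CPM at 30 °C.

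Because the heat change chose the genes, the same measure was also described in genotypes that had no part in the choice. The rule was applied to the pairs of 11 genotypes, with the same share of pairs required, and the 150 genes it chose were followed in the pairs of the genotype left out. Their median change there was above 0 in 12 of 12 genotypes, from 0.24 in In4 to 0.73 in In5, with a median of 0.46. The share of chosen genes that were higher at 32 °C ran from 68% to 94.7%, with a median of 79%. Rows of the same control level had median changes between −0.09 and 0.11 in the same pairs. Between 112 and 128 of the genes chosen each time were among the 150. Their median lies below the 0.56 found over the pairs that did choose, and the values of In5, In7, O3 and O6 lie above it.

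**Figure D4:**
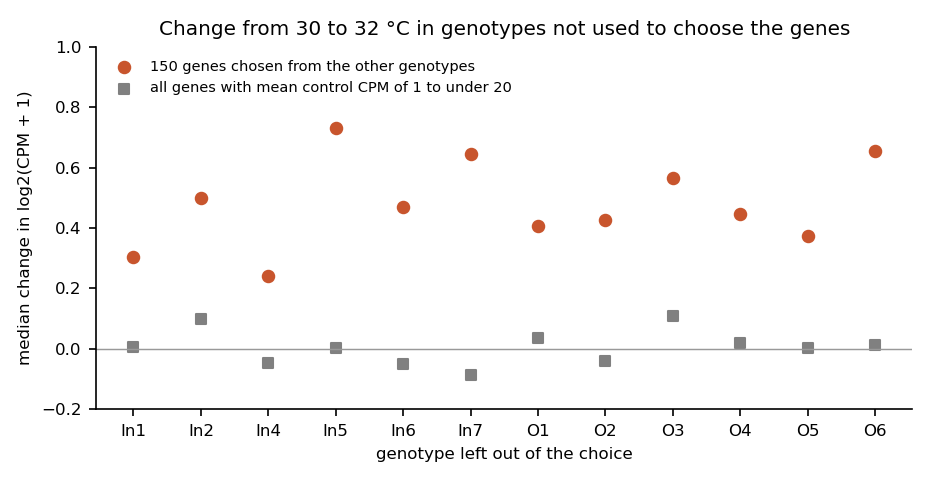
Median change in log2(CPM + 1) from 30 to 32 °C in each genotype, for the 150 genes chosen from the other genotypes (circles) and for all rows with 1 to under 20 CPM at 30 °C (squares). The circles lie between 0.24 and 0.73 and the squares between −0.09 and 0.11.

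The fit over all genes, in edgeR with the coral as a block and Benjamini-Hochberg adjustment over the 35219 genes that passed the count filter, tested the comparisons the rule had not used. All 150 genes passed that filter. For heat, 137 of them passed 0.05 as higher, where 1.82% of all genes tested did, and nothing is read from this because the rule used that contrast. Within single combinations of origin and site 49 passed in corals of inshore origin placed inshore (0.517% of all genes), 1 in those corals at the offshore site (0.00568%), 0 in corals of offshore origin placed inshore (0%; 66 had an unadjusted p under 0.05, as did 4.48% of all genes) and 4 in those at the offshore site (0.0596%). Corals of inshore origin gave 8 pairs at each site, and 182 of all genes tested passed as higher inshore and 2 offshore. Corals of offshore origin gave 5 pairs inshore and 6 offshore. The counts within combinations are also descriptions, because the rule used the heat change in all of them.

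Averaged over origins, transplant site gave no call among these genes. For offshore minus inshore site over both temperatures 0 of the 150 passed the adjusted threshold of 0.05 in edgeR, where 0.386% of all genes did. At an unadjusted p under 0.05 there were 4 of the 150, against 5.51% of all genes, and DESeq2 called 0 (0.369% of all genes) with 4 at that level. The count of 4 became 16 without B3. The median difference was −0.06 on the log2 scale. At 30 °C alone 0 genes passed as well (0.338% of all genes), with 8 at an unadjusted p under 0.05 (6.22% of all genes) and a median difference of −0.02, and DESeq2 called 0 (0.307% of all genes) with 9. The share of symbiont counts differed by site in corals of offshore origin. These counts were assigned to a single symbiont reference, named trenchii, so a low share need not mean few algae. Whether other symbionts were present was not tested. Symbiont counts were 20.1% ± 5.46 of all counts in corals of offshore origin placed inshore at 30 °C and 0.133% ± 0.0440 in those placed offshore (SD, n = 6 each). The levels of the 150 genes in those groups were 2.52 ± 0.0488 and 2.47 ± 0.165. In corals of inshore origin the symbiont shares at 30 °C were 6.78% ± 8.95 inshore and 3.91% ± 8.73 offshore (SD, n = 8 each), and 4 of 8 corals had the higher share offshore. No gene of the 150 had a correlation over 0.7 in size with the ratio of symbiont to host counts within groups, and 2 (1.33%) had one over 0.5, compared with 2.78% of rows of the same control level.

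The site difference depended on origin in 1 gene by the adjusted test, the gene of rank 1. Its site difference, offshore minus inshore, was lower in inshore-origin than in offshore-origin corals by 3.78 ± 0.907 on the log2 scale (SE; fitted value −3.78), with an adjusted p of 0.0498 from edgeR's quasi-likelihood test. Of all genes tested 0.324% passed in either direction, and 0.142% of all genes tested passed as lower. The call is at the edge of the threshold: over 21 alternatives the fitted value stayed between −4.21 and −3.22, the adjusted p ran from 0.00948 to 1, and 6 passed 0.05. DESeq2 gave −3.56 with an adjusted p of 0.0229, where 0.292% of all genes passed. It was lost without the libraries that stand apart (adjusted p 0.0642), with the symbiont ratio as a term (adjusted p 1) and without the coral block (adjusted p 1). Leaving out a coral kept the call for B3 and C3 and ended it for each of the other 12, with adjusted p from 0.0565 without B6 to 0.238 without C2. A3, A5 and A6, of 1 genotype, entered the fit as separate corals of inshore origin. None of the 21 alternatives took them as 1 unit, so the adjusted p treats them as independent. The contrast also rests in part on the inshore-origin controls at the offshore site, which held 0 to 4 estimated counts of this gene.

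In the other genes this contrast leaned the same way without passing. Of the 150, 125 (83.3%) had a value below 0, against 54.4% of all genes tested, and their median was −0.30 against −0.03. An unadjusted p under 0.05 was found in 32 (21.3%), of which 30 were below 0, where 8.67% of all genes had one. A value below 0 means that, taken over both origins, the gene stood higher at the transplant site of the coral's own kind than at the other site. Without the libraries that stand apart the median was −0.24 and 17 genes had an unadjusted p under 0.05, and with the symbiont ratio as a term it was −0.26 with 9. Leaving out 1 coral lowered the count from 32 to 15 without C4, 18 without C2, 19 without B4 and 20 without B1, and it was 19 without the coral block. The genes are correlated with one another and were chosen together, so the counts describe these libraries and are no test of the set.

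The values lay further from 0 at 32 °C than at 30 °C. At 32 °C the median was −0.48 and 129 of 150 genes were below 0 (53.5% of all genes), with 31 at an unadjusted p under 0.05 (7.12% of all genes) and 0 past the adjusted threshold (0.0653% of all genes). At 30 °C the median was −0.13, with 92 genes below 0 (53.1% of all genes), 5 at an unadjusted p under 0.05 (4.30% of all genes) and 0 past the adjusted threshold (0.119%). Both of these splits were added after the values were seen. The difference between temperatures is itself the heat change at the site of the coral's own kind against the other site. By that contrast, 0 of the 150 genes passed the adjusted threshold (0% of all genes), 4 had an unadjusted p under 0.05 (2.80% of all genes), and DESeq2 called 0 (0.118% of all genes) with 5. The count of 4 in edgeR became 16 without B3 and 13 without A6. The median was 0.20, and 125 genes were above 0, as were 50.6% of all genes.

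Coral by coral, the mean change of the 150 genes was larger at the site of the coral's own kind in 9 of 13 corals that have both values, 6 of 8 of inshore and 3 of 5 of offshore origin. The mean of the differences was 0.15 ± 0.537 (SD), so its spread over corals was larger than the mean. Coral B3 went furthest the other way, by −1.35, and among the 8 corals with no library that stands apart it was 6 of 8 with a mean of 0.30 ± 0.302. Coral A3 had changes of 0.99 at the inshore and 0.43 at the offshore site, and B2 had 1.26 and 0.66. Of the offshore-origin corals C1 had 0.35 and 0.75 and C2 had 0.37 and 0.86, while C5 and C6 had slightly larger changes at the inshore site.

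**Figure D5:**
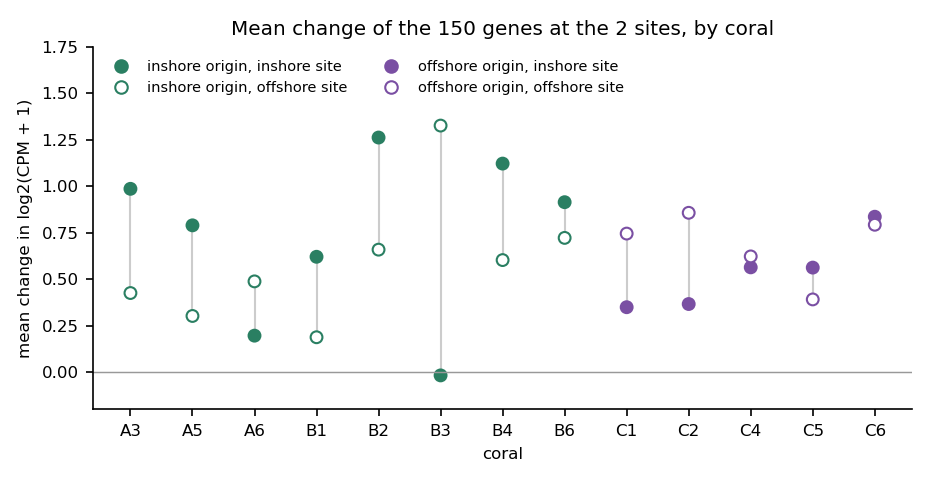
Mean change in log2(CPM + 1) of the 150 genes from 30 to 32 °C in each coral at the inshore site (filled) and the offshore site (open), with inshore-origin corals in green and offshore-origin corals in purple. The change is larger at the site of the coral's own kind in 9 of 13 corals, and B3 shows the widest gap, from −0.02 to 1.33.

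The heat change was not shown to depend on site or on origin in any of the genes. The rule asked for the same direction in 21 of 27 pairs, which works against finding such a dependence. For offshore minus inshore site 0 genes passed the adjusted threshold (0% of all genes), 18 had an unadjusted p under 0.05 (9 in each direction; 5.84% of all genes), the median was −0.09 and DESeq2 called 0 (0.161% of all genes) with 21. For inshore minus offshore origin 0 passed (0% of all genes), 3 had an unadjusted p under 0.05 (4.99% of all genes), the median was 0.15 and DESeq2 called 0 (0.142% of all genes) with 5.

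Origin was compared on counts summed per genotype, 6 of inshore against 6 of offshore origin, over all temperatures and sites. The sum of offshore genotype O3 (coral C3) lacks its heated inshore-site library. For genes chosen by their rise with heat this bears on the difference. None of the 150 genes passed the adjusted threshold (0% of 39603 genes tested), 9 had an unadjusted p under 0.05, 6 of them higher in inshore-origin corals, where 5.15% of all genes had one, and DESeq2 called 0 (0.28% of all genes) with 13. The median difference was 0.11 against 0.01 over all genes. Single genes ranged from −1.07 to 1.86.

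Levels at 30 °C were repeated between the sites by coral, as in other scarce genes. The Pearson r of a gene's level between the inshore-site and the offshore-site fragment, over the 14 corals, had a median of 0.47 in the 150 genes and 0.48 in rows of the same control level. The change with heat was not repeated between a coral's fragments in this way. Over the 13 corals with both changes its r had a median of −0.12 in the 150 genes and −0.03 in rows of the same level, and it was above 0 in 50 of the 150 (33.3%) and in 45.5% of those rows. The fixed number of pairs each gene had to be higher in bears on these values. Coral B3, with the lowest mean change of all pairs at its inshore site and the highest at its offshore site, is among the 13 corals. The r of the changes was not computed without B3.

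Within the set the changes went partly together. The mean r between the changes of 2 member genes over the 27 pairs was 0.17, with 73.9% of the pairs of genes above 0, against a mean of 0.03 among rows of the same control level. Without the pairs of B3 it was 0.14 against 0.02, and without all pairs that hold a library standing apart it was 0.13 against 0.01. The members were chosen by these same changes. They also had a median level of 4.97 CPM at 30 °C, where the rows of that range had 3.55 CPM. Both bear on the comparison. The first principal component of the changes held 30.9% of their variance and the second 14.1%. The first ordered the pairs from B3 at the inshore site and B1 at the offshore site at one end to B3 and C3 at the offshore site at the other, and all 4 of these hold a library that stands apart. Of the 150 genes 134 had a weight of the same sign on it.

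The identifiers give a view of which members may be related transcripts, since an assembler writes contigs with shared sequence under one component number. Of the 150 genes 84 (56%) share their component with other rows of the table, close to the 54.4% of rows of the same control level. Within the set 15 genes fall into 7 components that hold several members, 3 at most. The largest of these holds ranks 7, 11 and 22, and ranks 4 and 16 share another. Over the 9 pairs of members within a component, r of the levels with group means removed ran from −0.03 to 0.89 with a median of 0.37, where all pairs of members had a median of 0.11. The highest belongs to ranks 41 and 50, which had 14.5 and 13.8 CPM at 30 °C and values that were not whole in 98.2% and all of the libraries. Such values arise where reads are divided between rows, so the levels of these 2 genes are uncertain. Values that are not whole made up over 50% of the libraries in 57 of the 150 genes (38%), beside 44.03% of rows of the same control level. The gene of rank 1 is among the 57, with for example 503.838 estimated counts in B4 at the inshore site and 32 °C. Its levels, and the call for its site difference by origin, are uncertain in the same way.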

How the data were processed

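Per the labels' protocols, total RNA from coral tissue went into stranded mRNA libraries. The submitters' processing notes list Trimmomatic 0.36 and RSEM, while the names of the tables point to kallisto. Neither the assembly nor the version of the quantifier is given in the sources used here. The authors deposited estimated counts per isoform, not normalized, in a host table of 87440 rows and a symbiont table of 52359 rows, which served only for the symbiont share and ratio. A column of each table, 1 apiece, was not used: its name gives the control temperature, and the only label left without a column gives 32 °C.

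Here CPM is the count over the column's sum, times 1000000. For tests, estimated counts were rounded to whole numbers and fitted in R 4.3.3 with edgeR 4.0.16, using TMM, a count filter (filterByExpr, 8 groups, minimum 10), the quasi-likelihood F test and Benjamini-Hochberg adjustment at 0.05 over 35219 genes. Coral was a block, with 35 residual degrees of freedom. The block follows from the labels, since same-numbered fragments are one animal, and fragments of a coral deviated together from their group means (mean r 0.462 to 0.744 by coral, against −0.0538 between corals). The steps were tested on simulated data. A value was called whole within 1e-06, and a library was said to stand apart when its mean r with the others, over 26619 rows with a mean count of 10 or more, lay over 3 scaled median absolute deviations below the median.

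The members and lists were chosen with earlier results of these data known. Named by identifier are the 2 genes with the largest mean change and, per tested contrast, up to 2 genes each way past 0.05; other genes go by rank. Functional gene lists could not be applied, because the files do not pair identifiers with names. Alternatives were DESeq2 1.42.0, RLE factors, no count filter, no replicate block, the symbiont ratio or library number as a term, other pseudocounts and scaling, In1 corals as 1 unit, and leaving out each coral or the libraries that stand apart. Apart from the comparison of origin, no fit took the In1 corals as 1 unit.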

Additional observations from a re-analysis of the deposited data

Results flagged for a closer look

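In 28 groups of 4 to 10 libraries or pairs the highest and the lowest value were set against the others, and 5 groups had a value whose gap to the nearest was large for the group's range. Chance flags about 1 in 20 such groups if values follow a normal distribution. The CPM of single genes can be skewed. For the rank 1 gene in inshore-origin corals placed inshore at 32 °C the mean was 32.4 and the median 13.8 CPM. For such groups the share flagged by chance is not known. Among corals of offshore origin placed inshore at 30 °C, C1 had the lowest average level of the 150 genes, 2.43, where the next was 2.53. Coral B3 of inshore origin at the offshore site had a mean heat change of 1.33, with the next at 0.72.

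The same heated fragment of B3 led both leading genes in its group. It had 69.0 CPM of OFAVBQ_DN218234_c4_g1, next 11.7 CPM, and 95.3 CPM of OFAVBQ_DN224748_c2_g1, next 14.9 CPM. Among corals of offshore origin placed offshore at 30 °C, C5 had 34.9 CPM of OFAVBQ_DN218234_c4_g1, next 8.99 CPM.

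The groups differed in 1 result: the site difference of OFAVBQ_DN218234_c4_g1, inshore minus offshore origin, was −3.78 on the log2 scale, with an adjusted p of 0.0498 in edgeR and from 0.00948 to 1 over 21 alternatives. A3, A5 and A6, of genotype In1, counted as separate corals in that fit. Inshore-origin controls at the offshore site held 0 to 4 estimated counts of the gene.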

How the results depend on the processing

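The median heat change of the 150 genes was 0.49 to 0.62 in 20 alternatives, 0.54 to 0.59 when single corals were left out. Of the 150 genes, the rule chose 115 to 133 again without 1 coral, 116 to 140 under other pseudocounts, scaling or without pairs that hold a library standing apart, and 82 from the pairs with both library numbers above 16. That last choice uses 12 pairs, so fewer pairs decide it. With 1 coral left out 0 to 1 genes had a site difference that depended on origin. The count of 1 became 0 with no replicate block, without the libraries that stand apart and with the symbiont ratio beside the replicate block; the cause was not tested. The counts for site, site at 30 °C, and heat by site, by origin and by home or away site were 0 in 21 alternatives, no replicate block included, and the count for origin was 0 in 15. The heat counts and the site difference by origin at 30 or 32 °C alone were not compared under alternatives here. The median of the site difference by origin stayed between −0.34 and −0.22 in 21 alternatives. A median of 24.7 estimated counts per gene and library at 30 °C limits what a test of 1 scarce gene can show.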
